A study of Drosophila melanogaster with 6 samples.

Results

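The genes described here encode the cytosolic glutathione S-transferases (GSTs) of Drosophila melanogaster, measured in embryos that lack the bZIP transcription factor CrebA and in wild-type embryos. Members were chosen by gene symbol, as Gst followed by a class letter (D, E, O, S, T or Z) and a number, and 34 such genes were measured out of 11982 named genes on the array. They comprised 11 genes of class D, 13 of class E, 3 of class O, 1 of class S, 4 of class T and 2 of class Z, and each was represented by its probe set with the highest mean signal. GstE8 was not analysed here.

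Whole embryos were run through a COPAS biosorter, an instrument that sorts large objects by size and fluorescence, and total RNA from them was hybridised to 6 Affymetrix Drosophila Genome 2.0 arrays. The first group was 3 wild-type samples, whose strain the labels do not name. The second was 3 samples of CrebA null mutants, picked by the sorter for the absence of a balancer chromosome that carries GFP. The allele is not named. Only the titles of the mutant samples carry the word sorted, and any difference in handling could not be told apart from genotype. In both genotypes the collection window was 8 h and ageing took 11 h, and the labels start the stage range at 11 and end it at 15 in one place and at 17 in the other. The series asks how far secretory pathway genes depend on CrebA, and the GSTs are not secretory pathway genes.

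GSTs join the tripeptide glutathione to reactive or fat-soluble compounds, which makes these easier to excrete, and several also reduce peroxides or transfer thiols. The delta (D) and epsilon (E) classes are the large insect expansions and lie in tandem gene clusters. Omega (O), sigma (S), theta (T) and zeta (Z) enzymes have relatives across animals, and some serve set metabolic steps rather than detoxification. In flies the bZIP factor cnc, held back by Keap1, switches on GstD1 and other protective genes under oxidative stress.

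Values are RMA levels on a log2 scale, so a difference of 1 is a doubling of signal, and a level cannot be compared between different probe sets. A gene is said to have risen or fallen where limma gave an adjusted p under 0.05 across all 18769 fly probe sets. Precision is limited by the 3 arrays per genotype. The design text calls the replicates individual without saying whether they were collected separately, so the spread behind every p-value is that of these arrays and could be technical. The replicate 2 arrays stood apart from the others in both genotypes (scores of 53.5 and 20.1 on the first principal component, against -36.8 to -3.20). Arrays of the same replicate number deviated together, but those of replicates 1 and 3 also did when crossed, so their pairing is not settled. A value with the replicate number as a block is given where it changes the call. Embryonic neurons and muscle were represented in both genotypes, with mean levels of the neuronal gene elav at 9.60 and 9.58 and of the muscle gene Mlc1 at 12.87 and 13.26 in wild type and mutants. CrebA itself was not analysed here, as the annotation gave its name to no probe set, so the genotype labels have no check. In RNA from whole embryos, fewer cells of a type and less RNA per cell cannot be told apart.

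Of the 34 GST genes, 4 rose in the mutants, 0 fell and 30 did not pass the test. The 4 were GstE1, GstE3 and GstE9 of class E and GstD10 of class D. They made up 11.8% of the GSTs, while 1.90% of all genes rose and 1.02% fell (2.92% in either direction). At an unadjusted p under 0.05, 13 GSTs were higher and 2 lower, where 9.92% and 7.73% of all genes were, so the lower GSTs were no more frequent than lower genes at large. The changes of the 34 genes had a median of 0.31 (log2), against -0.02 for all genes, with 26 positive and 8 negative. In 15 of them every mutant array lay above every wild-type array, and in 2 every mutant array lay below, where the shares over all genes were 10.9% and 10.2%. With a difference of at least 1.5-fold required as well, 9 GSTs were higher and 2 lower, and the shares over all genes were 4.63% and 3.13%. With the replicate block 16 GSTs rose and 2 fell, against 12.6% and 9.21% of all genes.

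Like the count over all genes, the count of risen GSTs became smaller whichever single array was left out. It was 0 without wild type 1, without mutant 1 or without mutant 3, settings in which 16, 24 and 33 of all genes rose. It was 1 (GstE1) without wild type 3 or mutant 2, where 58 and 114 of all genes rose. It was 2 without wild type 2 (GstE1 and GstE6, the latter not among the 4), where 136 of all genes rose. GstE3, GstE9 and GstD10 were called in 0 of the 6 settings that left out 1 array, with adjusted p-values from limma of 0.0518 to 0.175, 0.0597 to 0.146 and 0.0724 to 0.175. Without both replicate 2 arrays 8 GSTs rose and 2 fell, and the counts over all genes also went up, to 504 risen and 324 fallen from 228 and 122.

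**Figure D1:**
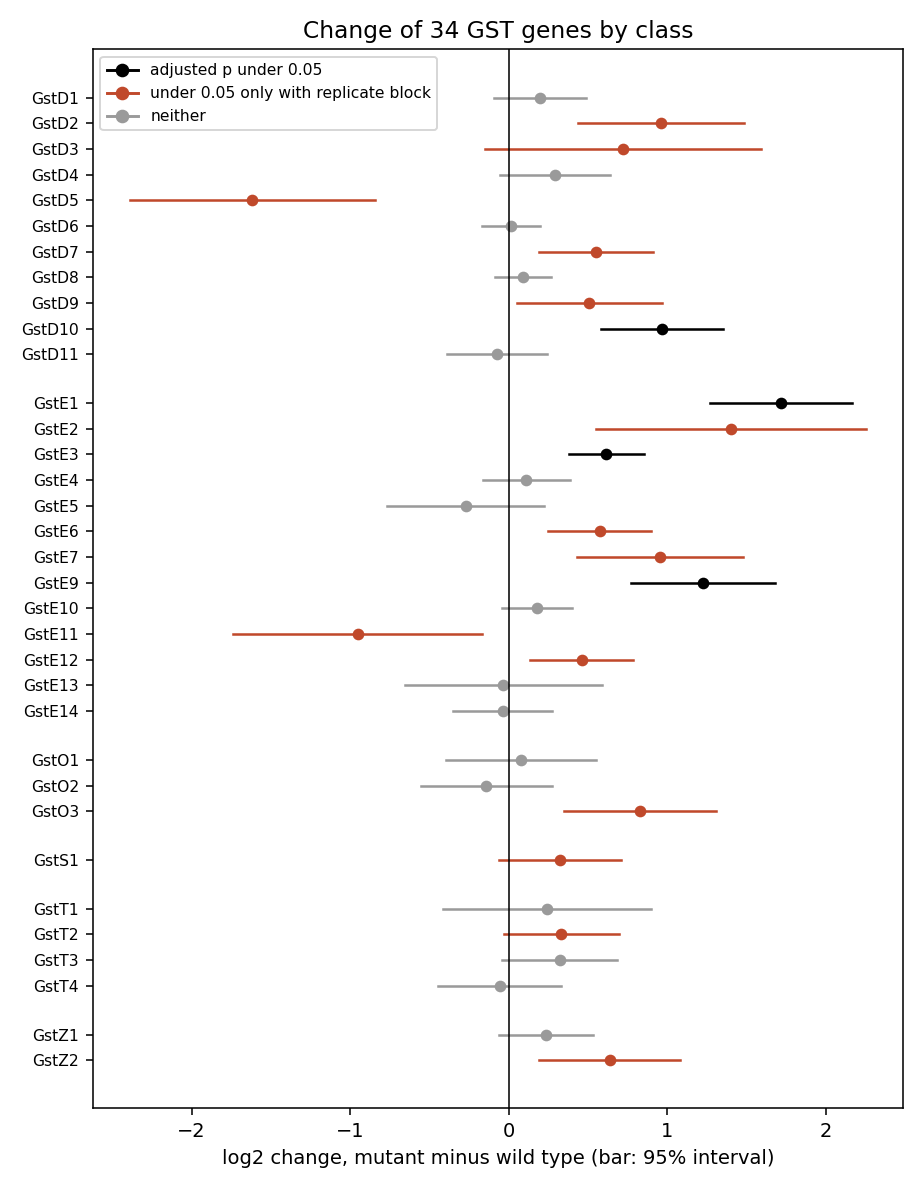
Change of each of the 34 GST genes (log2, mutant minus wild type) with its 95% interval from limma, ordered by class. Black points have an adjusted p under 0.05 (4 genes), red points only with the replicate block (14 genes) and grey points in neither fit; most points lie right of 0, with GstD5 and GstE11 farthest to the left.

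Class E held the largest share of genes that rose, 3 of 13, with a median change of 0.46. GstE1 had log2 levels of 9.01, 9.17 and 9.68 in wild type 1, 2 and 3 and of 11.10, 11.00 and 10.92 in mutants 1, 2 and 3. The mutant arrays were all more than 1 log2 unit above the highest wild-type array and close to each other. The rise was 3.29-fold (log2 change 1.72, SE 0.18, adjusted p 0.0145). Its change kept to between 1.58 and 1.92 in 19 alternative settings, and it was called in 3 of the 6 that left out an array.

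GstE9 had log2 levels of 7.01, 7.52 and 7.56 in wild type and 8.55, 8.40 and 8.81 in the mutants. The genotypes did not overlap, and the gene rose 2.33-fold (change 1.22, SE 0.19, adjusted p 0.0352). The array carries 17 control probe sets for sequences foreign to the fly, and the brightest of them on each array serves here as the measure of background. A further probe set of GstE9 did not exceed it on any array, at 4.79 ± 0.38 in wild type and 4.52 ± 0.11 in mutants (SD, n = 3). That probe set had a change of -0.28 (SE 0.20, adjusted p 0.675), so the rise of GstE9 was seen by the brighter probe set alone.

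GstE3 had log2 levels of 9.90, 10.08 and 9.89 in wild type and 10.69, 10.48 and 10.54 in the mutants. Both genotypes were tight and did not overlap, and the gene rose 1.53-fold (change 0.61, SE 0.10, adjusted p 0.0381).

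GstE2 and GstE7, neighbours of these genes, had changes larger than that of GstE3 that did not pass the test. GstE2 had log2 levels of 6.72, 5.99 and 7.06 in wild type and 8.07, 7.48 and 8.44 in the mutants. The replicate 2 array was the lowest of both genotypes, and the arrays of the same number differed by 1.34, 1.49 and 1.37. The change of 1.40 (SE 0.35) had an adjusted p of 0.120, and of 5.9e-04 with the replicate block. GstE7 had levels of 8.43, 9.20 and 8.92 in wild type and 9.83, 9.98 and 9.59 in the mutants. It did not overlap between genotypes, and its change of 0.95 (SE 0.21) had an adjusted p of 0.0935, and of 0.00928 with the block.

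GstE11 differed in the other direction. Its log2 levels were 10.18, 10.86 and 9.94 in wild type and 9.19, 9.92 and 9.02 in the mutants. Replicate 2 was the highest array of both genotypes, every mutant array was below every wild-type array, and arrays of the same number differed by -0.99, -0.94 and -0.93. The change of -0.95 (SE 0.32) had an adjusted p of 0.245, and of 0.00101 with the block.

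The other 7 genes of class E had smaller differences. GstE6 and GstE12 had changes of 0.57 (SE 0.13, adjusted p 0.101) and 0.46 (SE 0.13, adjusted p 0.174) with no overlap between genotypes, and rose with the block (adjusted p 0.0144 and 0.0158). GstE10 had a change of 0.18 with no overlap, and GstE4, GstE5 and GstE13 had changes of 0.11, -0.27 and -0.03 with overlapping arrays. GstE14, the product of the noppera-bo gene that is needed for ecdysteroid synthesis in the prothoracic gland, lay within the foreign controls on every array, at 4.14 ± 0.17 in wild type and 4.10 ± 0.16 in mutants (SD, n = 3), so it was not well above background.

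**Figure D2:**
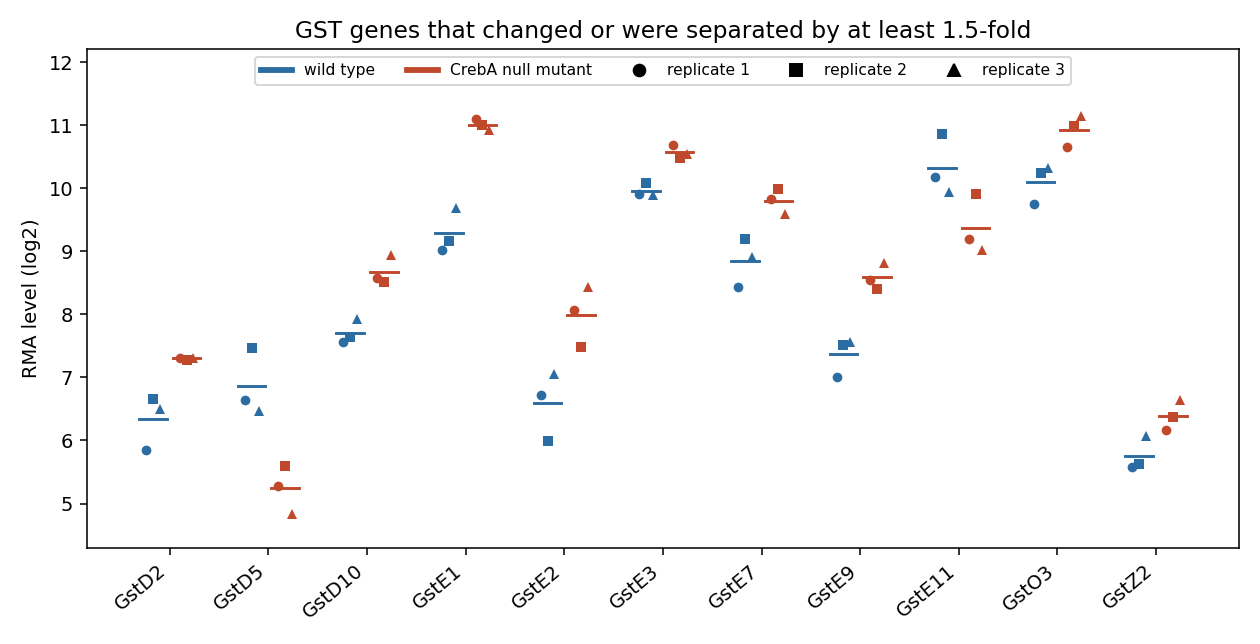
RMA level (log2) on each array for the 11 GST genes that changed or whose genotypes did not overlap with a difference of at least 1.5-fold. Blue is wild type and red is the CrebA null mutant, symbols give the replicate number and bars the mean of 3 arrays; in 9 genes all mutant arrays are higher, and in GstD5 and GstE11 all are lower.

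Class D had 1 gene of 11 that rose and a median change of 0.29. GstD10 had log2 levels of 7.56, 7.64 and 7.93 in wild type and 8.58, 8.51 and 8.94 in the mutants. Replicate 3 was the highest of each genotype, and the difference within replicate numbers was steady, at 1.02, 0.87 and 1.01. The gene rose 1.95-fold (change 0.97, SE 0.16, adjusted p 0.0415).

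GstD2 had log2 levels of 5.85, 6.66 and 6.51 in wild type and 7.31, 7.27 and 7.32 in the mutants. The mutant arrays were nearly equal while the wild-type arrays spread over 0.8 log2 units, and the change of 0.96 (SE 0.21) had an adjusted p of 0.0932, and of 0.0133 with the block. GstD3 had a change of 0.72 (SE 0.36) with overlapping arrays, with an adjusted p of 0.478, and of 0.0178 with the block. GstD7 and GstD9 had changes of 0.55 (SE 0.15) and 0.51 (SE 0.19), with adjusted p-values of 0.144 and 0.296, and of 0.0129 and 0.0317 with the block.

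GstD5 had the largest difference downwards among all GSTs. Its log2 levels were 6.64, 7.47 and 6.47 in wild type and 5.28, 5.60 and 4.84 in the mutants. All mutant arrays were lower than all wild-type arrays by more than 0.8 log2 units, yet each stayed above the highest foreign control of its array. The change of -1.62 (SE 0.32, 3.07-fold lower) had an adjusted p of 0.0658, and of 8.8e-04 with the block. The adjusted p was 0.0382 with a variance trend and 0.0145 after centring on housekeeping genes, and ran from 8.8e-04 to 0.218 over 19 alternative settings.

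GstD1, the best studied fly GST, which can remove hydrogen chloride from DDT, had log2 levels of 12.01 ± 0.20 in wild type and 12.21 ± 0.04 in mutants (SD, n = 3). The arrays overlapped and the change was 0.20 (95% interval -0.09 to 0.48, adjusted p 0.597). GstD4 and GstD6 lay within the foreign controls on all 6 arrays, and were not well above background, with changes of 0.29 and 0.01. GstD8 and GstD11 had changes of 0.09 and -0.07. GstD8 did not overlap between genotypes although it differed by only 1.06-fold.

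The D and E genes lie mostly in 2 runs of neighbours in the RefSeq annotation (Release 6), and the changes were uneven along both. In the run of 10 genes from GstE10 to GstE9 GstE1 and GstE3 flanked GstE2 near the start and GstE9 closed the run, with GstE4 and GstE5 between them at 0.11 and -0.27. Of its 9 measured genes 8 had a positive change, and in 7 the mutant arrays were all higher. In the run of 11 genes from GstD10 to GstD11, GstD5 at -1.62 stood between GstD4 at 0.29 and GstD6 at 0.01. Of these 11, 9 had a positive change. GstE11, GstE12, GstE13 and GstE14 lie outside the E run. Neighbouring genes of these clusters are close in sequence, and hybridisation of a probe set to a neighbour's transcript was not tested.

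**Figure D3:**
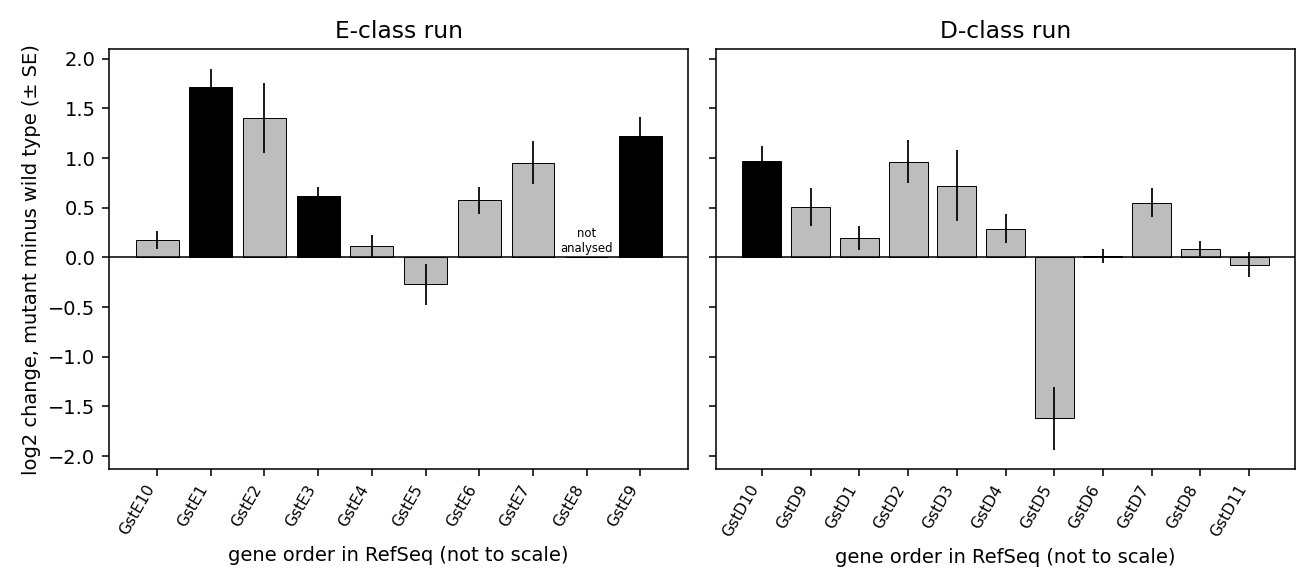
Change of the genes in the 2 largest runs of neighbouring GST genes, in RefSeq order and not to scale (log2, mutant minus wild type, bar height, with the SE from limma as error bar). Black bars have an adjusted p under 0.05; GstE1, GstE3, GstE9 and GstD10 are black, and GstD5 is the bar that reaches lowest, at -1.62.

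None of the 10 genes of classes O, S, T and Z was called by limma. At an unadjusted p under 0.05, 2 were higher, where 9.92% of all genes were. With the block 4 rose (40%, against 12.6% of all genes). Omega GSTs act as thiol transferases, and among them GstO3 had log2 levels of 9.74, 10.24 and 10.32 in wild type and 10.66, 10.98 and 11.14 in the mutants. Replicate 1 was the lowest of each genotype and there was no overlap. The change of 0.83 (SE 0.20) had an adjusted p of 0.108, and of 0.00168 with the block.

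The pair of probe sets for GstO2 did not give the same picture. The brighter had a change of -0.14 (95% interval -0.55 to 0.27) with overlapping arrays. The dimmer had log2 levels of 8.24, 7.995 and 8.30 in wild type and 7.65, 7.34 and 7.51 in the mutants, all mutant arrays being lower. Its change of -0.68 (SE 0.12) had an adjusted p of 0.0569, and of 0.00323 with the block. GstO1 lay above the foreign controls on 1 wild-type and 2 mutant arrays and had a change of 0.08.

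Zeta enzymes carry out a late step of tyrosine breakdown in mammals, the isomerisation of maleylacetoacetate. GstZ2 had log2 levels of 5.57, 5.63 and 6.07 in wild type and 6.16, 6.37 and 6.64 in the mutants. The lowest mutant array was just above the highest wild-type array, and the change of 0.64 (SE 0.18) had an adjusted p of 0.173, and of 0.00379 with the block. Its neighbour GstZ1 had a change of 0.23 (SE 0.12, adjusted p 0.504) with no overlap between genotypes.

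The only sigma gene, GstS1, acts on products of lipid peroxidation and is abundant in muscle. It had levels of 10.82 ± 0.19 in wild type and 11.14 ± 0.24 in mutants (SD, n = 3) and a change of 0.32 (SE 0.16), with an adjusted p of 0.466, and of 0.0308 with the block. The suffix of its probe set is the one Affymetrix gives to sets that match several transcripts. The 4 theta genes had changes of 0.24 (GstT1), 0.33 (GstT2), 0.32 (GstT3) and -0.06 (GstT4), all with overlapping arrays. GstT2 rose with the block (adjusted p 0.0325) and the other three did not.

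**Figure D4:**
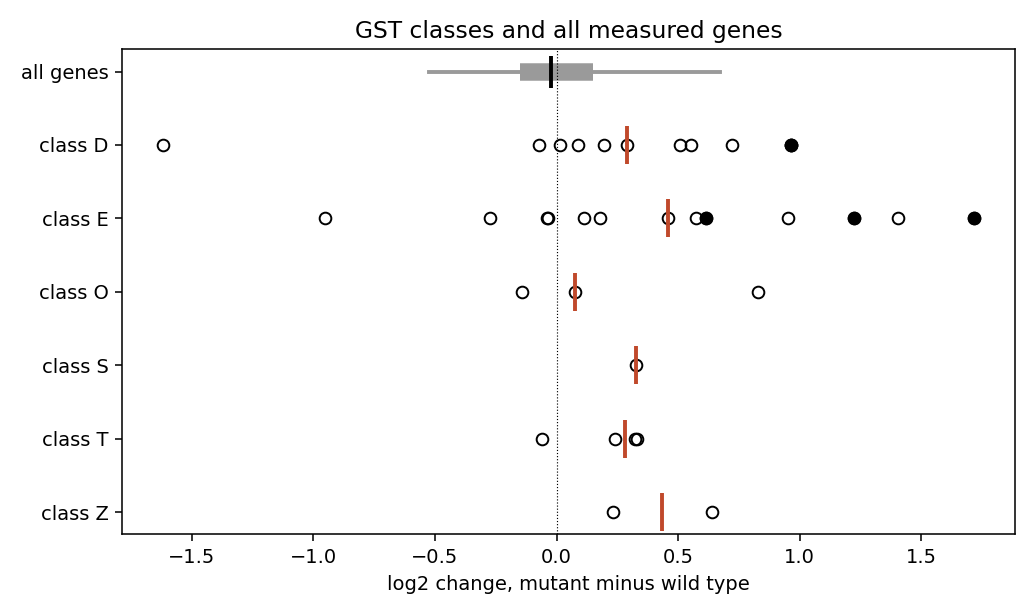
Change of each GST gene by class (circles, filled where the adjusted p was under 0.05, red ticks at the class median) beside the 11982 genes measured (log2, mutant minus wild type). For all genes the tick is the median of -0.02, the thick bar runs from -0.15 to 0.15 (quartiles) and the thin line from -0.52 to 0.67 (5th to 95th percentile).

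The class medians were 0.46 for E, 0.44 for Z, 0.32 for S, 0.29 for D, 0.28 for T and 0.08 for O, and the differences between classes were not tested. Members of a class are related genes measured in the same samples, not replicates. Within classes D and E the changes ran from -1.62 to 0.97 and from -0.95 to 1.72, while those of class T stayed between -0.06 and 0.33. Leaving out 1 array changed several class medians. Only that of E moved by more than the spread between arrays (SD of the class mean level within genotype), to 0.58 without wild type 2. The T median was 0.099 without wild type 1 and 0.17 without mutant 2, and the S value was 0.19 without mutant 3. The O median ran from -0.09 without wild type 1 to 0.22 without mutant 3, and changed by over 1.5 times without any 1 of the 6 arrays. The E median was lowest, at 0.36, without wild type 3.

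A list of genes for the synthesis and recycling of glutathione and thioredoxin was set beside the GSTs. Of 13 measured genes in this list, 1 rose (7.69%, against 1.90% of all genes) and 0 fell, with a median change of 0.31. With the block 5 rose (38.5%, against 12.6% of all genes) and 0 fell. Those that rose with the block include Esp (change 0.50), a sulfate transporter gene rather than one of glutathione or thioredoxin recycling. The risen gene was Trx2, a thioredoxin, with log2 levels of 11.34, 11.73 and 11.47 in wild type and 12.32, 12.42 and 12.39 in the mutants (change 0.86, SE 0.12, adjusted p 0.0271). Trxr1, the reductase that takes the place of glutathione reductase in flies, had a change of 0.72 (SE 0.14), with an adjusted p of 0.0623, and of 0.00758 with the block. Both subunit genes of the enzyme for the first step of glutathione synthesis had small differences, 0.11 (SE 0.10) for the catalytic Gclc and -0.08 (SE 0.37) for the modifier Gclm.

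Of 6 genes with a GST-like fold or activity whose symbols fall outside the pattern, 1 rose (16.7%, against 1.90% of all genes). It was gfzf, which joins FLYWCH zinc fingers to a GST domain. Its log2 levels were 10.07, 10.07 and 10.14 in wild type and 10.92, 11.10 and 10.86 in the mutants (change 0.86, SE 0.09, adjusted p 0.0142). The microsomal GST gene Mgstl had the same change of 0.86 (SE 0.17), with an adjusted p of 0.0636, and of 0.00124 with the block. The omega relative se, an enzyme of red eye pigment synthesis, lay within the foreign controls on all arrays.

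Of 10 antioxidant enzyme genes 3 rose (30%, against 1.90% of all genes) and 0 fell, with a median change of 0.22. These were MsrA, a methionine sulfoxide reductase (5.41-fold, change 2.44, SE 0.26), the peroxiredoxin gene Prx6c (1.93-fold, change 0.95, SE 0.15) and the catalase gene Cat (1.45-fold, change 0.53, SE 0.09). Their adjusted p-values were 0.0145, 0.0369 and 0.0403. With the block 4 of the 10 rose (40%, against 12.6% of all genes) and 0 fell. None of the regulators cnc, Keap1, maf-S and ref(2)P was called by limma. At an unadjusted p under 0.05, 1 of the 4 was higher, where 9.92% of all genes were. The changes of cnc and Keap1 were 0.04 (SE 0.30) and -0.10 (SE 0.21). The small Maf partner gene maf-S had a change of 0.44 (SE 0.15), with an adjusted p of 0.248, and of 0.0190 with the block.

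A pair of other large detoxification families was set beside the GSTs. UDP-glycosyltransferases attach sugars to the same kinds of compound, and of 35 measured 0 were called by limma (median 0.15). At an unadjusted p under 0.05, 11 were higher and 2 lower, where 9.92% and 7.73% of all genes were. With the block 13 rose and 2 fell (37.1% and 5.71%, against 12.6% and 9.21% of all genes). Of 83 genes with a Cyp symbol, 4 rose and 1 fell (median 0.04). These were 4.82% and 1.2%, against 1.90% and 1.02% of all genes. With the block 21 rose and 9 fell (25.3% and 10.8%, against 12.6% and 9.21%). The falls were thus near the shares over all genes. Most of the 83 encode cytochrome P450 enzymes, which oxidise such compounds, but Cyp1 and Cyp40 are cyclophilin genes. Neither Cyp1 nor Cyp40 was called with or without the block. The 3 largest rises were Cyp9b2 (change 1.52, SE 0.22), Cyp49a1 (1.44, SE 0.19) and Cyp309a1 (1.16, SE 0.18). The fallen gene, Cyp12d1-d, and the remaining risen gene, Cyp6a9, lay within the foreign controls on every array. The difference between the GSTs and these lists was not tested.

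**Figure D5:**
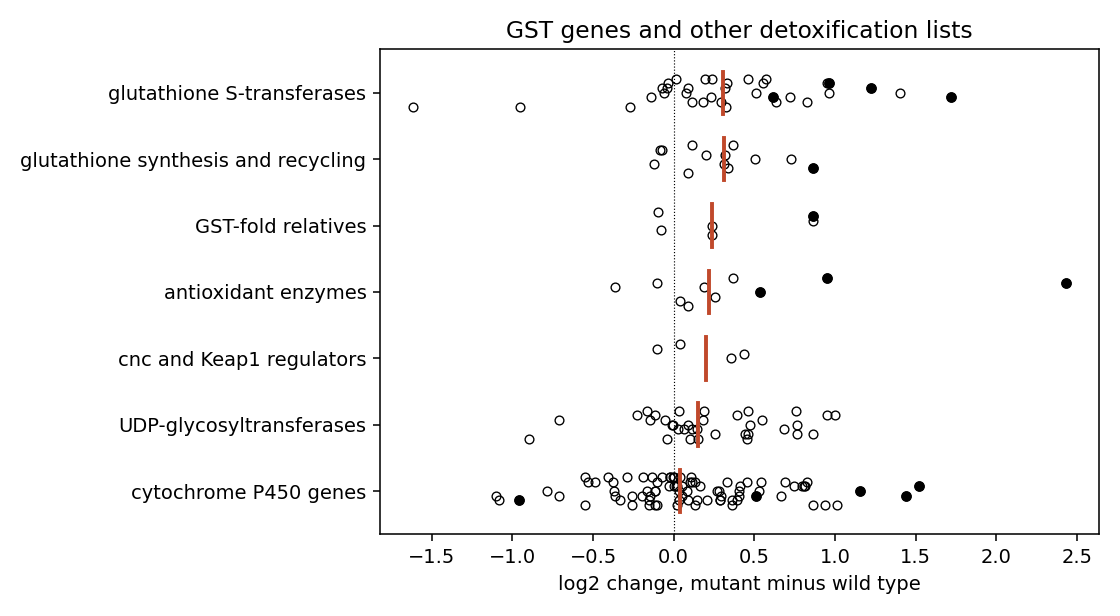
Change of the 34 GST genes and of the genes in 6 other lists (log2, mutant minus wild type; circles are genes, filled where the adjusted p was under 0.05, red lines are list medians, vertical spread is only for legibility). Medians run from 0.04 for the list labelled cytochrome P450 genes to 0.31 for the GSTs and for glutathione synthesis and recycling. The list labelled cytochrome P450 genes was taken by Cyp symbol and includes the cyclophilin genes Cyp1 and Cyp40.

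GSTs are expressed in gut, fat body and Malpighian tubules, and some markers of these tissues also differed. Of 6 midgut markers alphaTry and Jon25Bi rose and mex1 fell, where 1.90% of all genes rose and 1.02% fell. Jon25Bi exceeded the foreign controls on only 1 of 3 wild-type arrays. Npc2f, above them on 1 wild-type and 0 mutant arrays, fell only with the block (adjusted p 0.0355 from limma). The summed level of the midgut list on a linear scale was 3273 to 4156 in wild type and 1018 to 1153 in mutants. The difference in this sum lay mostly in mex1, which went from 11.42 to 7.58 (log2), while the median change of the list was 0.11 and the endodermal factor gene GATAe had a change of -0.11 with overlapping arrays. Of 6 tubule and hindgut markers VhaSFD rose, with sums of 4134 to 4821 and of 5674 to 6729. These sums lay mostly in VhaSFD and Vha55, with mean levels of 10.81 and 11.26 in wild type (log2). Both are genes of the vacuolar proton pump, which is not limited to these tissues, so the sums cannot stand for tubule or hindgut alone. Of the 6 changes 5 were positive and 1 negative, that of Irk3 (-0.43), in which every mutant array was lower. Of 7 fat body markers Mtp fell, with overlapping sums of 6075 to 14901 and of 6723 to 13059. These sums lay mostly in apolpp, with a mean level of 12.91 in wild type (log2). Fbp1 was also lower on every mutant array (change -0.24, adjusted p 0.219 from limma), but exceeded the foreign controls on only 2 arrays of each genotype. None of 5 muscle markers was called by limma, though 3 were higher at an unadjusted p under 0.05 and all 5 rose with the block. Over all genes 9.92% and 12.6% did, and the muscle marker sums were 13884 to 20494 and 21104 to 28181. None of 5 neuronal, 8 haemocyte or 5 tracheal markers was called by limma, with 0, 1 and 0 higher and 0, 0 and 1 lower at an unadjusted p under 0.05 and overlapping sums in each list. The haemocyte markers eater and He lay within the foreign controls. The part of these tissues in the GST differences was not tested.

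The replicate 2 arrays were often the extreme ones of both genotypes, among the GSTs as among all genes. In 12 of the 34 GSTs (35.3%) replicate 2 was the highest array of both genotypes and in 5 (14.7%) the lowest, against 38.6% and 24.1% of all genes. With each array centred on housekeeping genes, GstE1 was still called, GstE3, GstE9 and GstD10 were not (adjusted p 0.225, 0.0702 and 0.180 from limma), and GstE7 rose and GstD5 fell. The risen share of all called probe sets was then 47.7% rather than 61.0%.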

How the data were processed

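The authors deposited RMA levels taken here as log2 values. The submitters' processing notes name RMA and Partek without versions. The log base was inferred from the range (2.81 to 14.53), and the genome build and filters are not given in the sources used here. Per the labels' protocols, RNA was extracted with TriZol and RNeasy and labelled with the 3' IVT Express kit. All 6 columns were used.

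Gene names came from GEO's platform annotation. Of 18769 fly probe sets, after removal of 183 controls, 13647 had 1 symbol, 402 several and 4720 none. All 34 GST symbols were unchanged in the RefSeq gene table. The mutant and wild-type arrays were compared by limma 3.58.1 (lmFit, eBayes; R 4.3.3) on all probe sets, two-sided, with Benjamini-Hochberg adjustment. Levels were set against the highest of 17 Tag controls on each array (4.71 to 5.28). The fit was tested on simulated data. Figures used matplotlib 3.10.9 in python 3.11.15.

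The titles number replicates alike in both genotypes. Deviations of same-numbered arrays correlated (r 0.639, 0.852 and 0.563), but so did those of crossed replicates 1 and 3 (0.566 and 0.371), so the pairing of these is not settled.

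Every GST was accounted for. Those called, or not overlapping with at least a 1.5-fold difference, were given array by array. Of the other lists all called genes were named, and for P450 genes the 3 largest called in each direction. Among 138 listed symbols, 94 were found directly, 4 through a synonym, and 40 had no match. The members and lists were chosen with earlier results of these data known. A planned motif search in promoters was not run, as no sequence was used here. Alternatives covered scaling, a filter on dim probe sets, variance models, array weights, the block, threshold, probe set choice and leaving out arrays.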

Additional observations from a re-analysis of the deposited data

How the results depend on the processing

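The median change of the 34 GSTs moved by less than the spread between arrays in all 19 alternatives, from 0.22 to 0.40. The count of risen GSTs (4) became 2 after centring on housekeeping genes, 2 with a variance trend, 14 with array weights, 16 with the replicate block and 8 without both replicate 2 arrays, a setting chosen after seeing the data. Leaving out 1 array gave 0 to 2 risen and 0 fallen GSTs. The fallen count (0) became 1 after housekeeping centring, 1 with the variance trend, 1 at an adjusted p under 0.10, and 2 with array weights, with the block and without both replicate 2 arrays. Filtering on a mean level of at least 6 left 26 GSTs and moved the class medians of D, E and O to 0.61, 0.57 and 0.34. Array weights moved D and O to 0.52 and 0.31, and the dimmest probe set moved E to 0.18. Without 1 array the medians of D, E and O ran from 0.19 to 0.38, from 0.36 to 0.58 and from -0.09 to 0.22.

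Over all probe sets 267 rose and 171 fell. Risen ones numbered 150 with the filter, 132 with housekeeping centring, 1335 with array weights, 1788 with the block, 535 at 0.10, 581 without both replicate 2 arrays and 23 to 159 without 1 array. Fallen ones numbered 1109 with array weights, 1342 with the block, 359 at 0.10, 424 without both replicate 2 arrays and 15 to 121 without 1 array. In the 6 other detoxification lists 9 genes rose and 1 fell. Risen ones numbered 2 with housekeeping centring, 46 with array weights, 46 with the block, 16 at 0.10, 23 without both replicate 2 arrays and 0 to 6 without 1 array. Fallen ones numbered 0 with the filter, 0 with housekeeping centring, 2 with the trend, 11 with array weights, 11 with the block, 4 at 0.10, 3 without both replicate 2 arrays and 0 to 1 without 1 array.

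Sign changes were confined to genes not called, apart from GstE9, whose dimmer probe set gave -0.28. GstD6 turned to -0.050 with array median centring, -0.053 with array weights and -0.021 without both replicate 2 arrays, GstE5 to 0.0091 and 0.027 with array weights and without both replicate 2 arrays, and GstE13 to 0.060 with array weights. Leaving out 1 array gave ranges across 0 for GstD6 (-0.010 to 0.041), GstD11 (-0.18 to 0.022), GstE13 (-0.25 to 0.14), GstE14 (-0.13 to 0.047), GstO1 (-0.086 to 0.22), GstO2 (-0.28 to 0.037), GstT1 (-0.0016 to 0.38) and GstT4 (-0.18 to 0.099). The cause was not tested. Signal over background limits GstD4, GstD6 and GstE14, which lay within the foreign controls.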
